A study of Bos taurus with 12 samples.

Results

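The collagen crosslinking and hydroxylating enzymes considered here are 10 genes: LOX and LOXL1 to LOXL4, PLOD1 to PLOD3, P4HA1 and P4HA3. They were selected by gene symbol in the annotation of a custom bovine Agilent array, as a set drawn up with earlier results of these data known, and all 10 were found, as 11 of the 26323 transcripts on the array. The level of each was compared in biopsies of intercaruncular endometrium taken on Day 15 of a synchronized estrous cycle from the uterine horn on the side of the corpus luteum. The 4 old females (OF) were 13 to 14 years old and had never calved, and the 4 young females (YF) were 4 to 5 years old, had calved once and were sampled more than a year later. OF and YF were Holstein clones from 1 donor of cells, raised in the same conditions, so the animals of the study do not sample the genetic spread of the breed, and age and parity cannot be told apart. The third group, contemporary cows, comprised 4 cows of which the labels give neither age nor genotype. The study's text does not describe these cows, their parity or their sampling. The labels state that cow 1111 was set aside because its phenotype diverged, which leaves 3 contemporary cows and 11 arrays in the comparisons. The animal was the replicate, and p-values measure the spread between these animals.

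Fibrillar collagen is modified by these enzymes at successive stages. In the endoplasmic reticulum, prolyl hydroxylases convert proline to 4-hydroxyproline, which stabilizes the triple helix, and lysyl hydroxylases convert lysine to hydroxylysine, which carries sugars and determines which crosslinks can form. After secretion, the copper-dependent lysyl oxidases oxidize lysine and hydroxylysine in collagen and elastin to aldehydes that condense into covalent crosslinks. In the endometrium, types I and III collagen of the stroma are the main substrates, and smooth muscle of the underlying myometrium makes collagen and elastin of its own.

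Each gene was measured by a pair of probes of 60 bases. For P4HA3, a catalytic subunit of prolyl 4-hydroxylase and the enzyme gene on which the comparison of OF with YF turned, both probes overlapped by 19 bases, and for LOXL2 they overlapped by 44 bases. A stretch of 30 bases of each is shown because overlapping probes read some of the same bases, fewer for P4HA3 than for LOXL2. They do not count as independent readings, and all probes of a gene read the RNA of the same animals. The stretches are written from 5′ to 3′ as the array design gives them, and capitals mark the bases shared by both probes of the gene.
P4HA3, probe 1, bases 31 to 60: acttttttaaaGCAGACAGTAACTTTTTTA
P4HA3, probe 2, bases 1 to 30: GCAGACAGTAACTTTTTTAaaaaatacgat
LOXL2, probe 1, bases 1 to 30: acgctcaccgatcgccATGTGTCATCACGG
LOXL2, probe 2, bases 31 to 60: GAAACTACGAATAAaagatttatgacctgc
The probes of the other 8 genes shared no stretch. Those of P4HA1 were common to both of its transcripts on the array, which therefore repeat the same measurement, and they are shown for that reason, with no capitals.
P4HA1, probe 1, bases 31 to 60: atgatgttggcattcagattaaataaatat
P4HA1, probe 2, bases 1 to 30: tgtgccttaggagactggaaattttaaaat
Whether a probe lies in a coding exon or an untranslated region was not determined, since no genome of the array's build was used here. Over the 11 arrays the correlation of the probes of 1 gene was 0.992 for P4HA3, 0.998 for LOXL2 and 0.966 for P4HA1, and it was lowest for PLOD3 (Pearson r = 0.602), whose levels varied least between animals. The array annotation, on assembly UMD3.1, places P4HA3 on chromosome 15 (54418559 to 54459500, transcript ENSBTAT00000008644), P4HA1 on chromosome 28 (29229501 to 29329456, transcript ENSBTAT00000056188) and LOXL2 on chromosome 8 (71278583 to 71349786, transcript ENSBTAT00000008159).

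Levels are given as log2 of the processed Cy-3 intensity minus the 75th percentile of the array, so that 0 is the 75th percentile and 1 unit is a 2-fold difference. They compare animals for 1 gene and not 1 gene with another, because probes differ in brightness. The share of probes well above background was 71.56% to 74.93% per array, and no array had a saturated probe. Of the 10 genes, 9 had a probe well above background on all 11 arrays. LOXL4 had none on the array of contemporary cow 1068.

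Some arrays stood apart in the levels of cell type markers. All 10 epithelial and all 9 stromal fibroblast markers were well above background on all 11 arrays. So were all 8 endothelial, 9 leukocyte and 4 erythrocyte markers, so detection alone cannot tell this tissue from another. The 12 smooth muscle markers, which included MYH11, ACTG2 and DES, were also above background on every array, but their summed level was 1190 in OF 2258 and 413 in OF 0234, in multiples of the array's 75th percentile. It lay between 24.7 and 73 in the other 9 animals, which were 26.3 and 58.1 in the other OF, 24.7 to 73 in YF and 30.4 to 49.8 in contemporary cows. The summed level of the epithelial markers was lowest in OF 2258 (12.2), next lowest in YF 1069 (23.4), and 46.9 to 94.2 in the other 9. YF 1069 also had the highest summed level of stromal fibroblast markers, 74.4, against 35.9 to 63.4 in the other 10. The mean log2 deviation of these markers from the mean of the 11 animals was 0.47 in YF 1069, close to 0.41 in OF 2258. In whole biopsies, more cells of a type and more RNA per cell cannot be told apart. Results are therefore also given without OF 0234 and OF 2258, and without YF 1069, a choice made after the data were seen.

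The first comparison asked how the enzymes differed in the endometrium of OF and YF. P4HA3 was the member whose groups were apart: its level was 2-fold lower in OF (a log2 difference of -1.00, SE 0.30, n = 4 and 4), and every OF lay below every YF. The other 9 genes differed by at most 0.41 on the log2 scale, their groups overlapped and their intervals included 0. No gene passed the test after adjustment. In limma, 0 of the 10 genes and 0 of the 19755 transcripts tested (0%) had an adjusted p of 0.05 or less. At an unadjusted p of 0.05, limma called 1 of the 10 genes and 2.42% of the transcripts tested. The groups did not overlap for 1 of the 10 genes and for 1.53% of the transcripts tested. FCROS, the rank statistic with which the study called genes, was recoded here from its description, so its calls are not the study's own. It called 1 of the 10 genes, against 4.94% of the 26323 transcripts. The median difference was -0.04 over the 10 genes and 0.01 over all transcripts tested, with 4 of the 10 higher and 6 lower in OF.

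**Figure D1:**
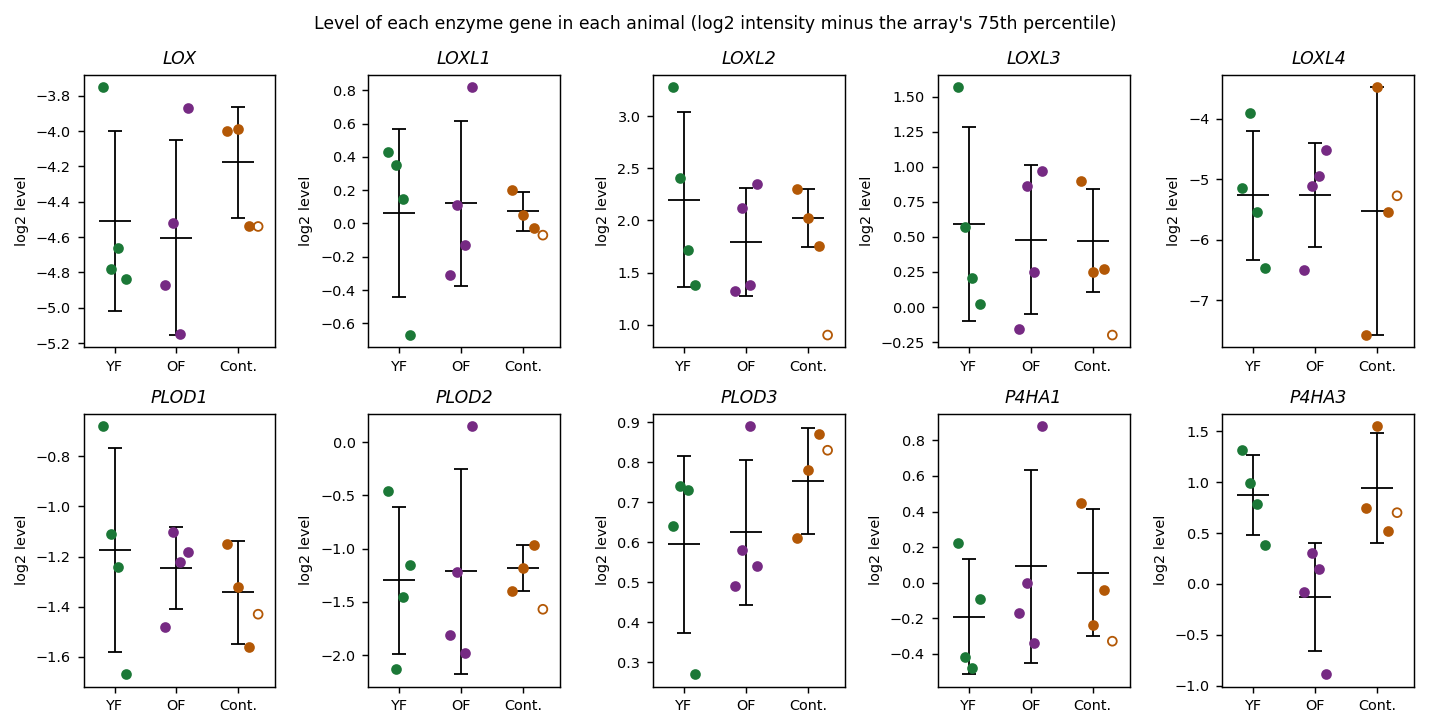
Level of each of the 10 enzyme genes (log2 processed intensity minus the 75th percentile of the array, each panel with its own axis) in every YF, OF and contemporary cow (Cont.). Filled points are animals, bars are the mean and SD of 4 YF, 4 OF or 3 contemporary cows, and the open circle is cow 1111, which is in none of the means. The 4 OF lie between -0.89 and 0.30 for P4HA3, below all 4 YF, and the groups overlap in the other panels.

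P4HA3 is a catalytic alpha subunit of prolyl 4-hydroxylase. It had levels of 1.32, 0.99, 0.79 and 0.38 in YF 1069, 1070, 1072 and 1127, and of -0.08, 0.30, 0.15 and -0.89 in OF 0233, 0234, 0245 and 2258. The highest OF (0.30) was just below the lowest YF (0.38), so that the groups were apart by 1 narrow gap, and OF 2258 was well below the other OF. The means were 0.87 ± 0.39 (SD, n = 4) in YF and -0.13 ± 0.53 (SD, n = 4) in OF. The difference of -1.00 had a 95% interval of -1.69 to -0.31, with an unadjusted p of 0.00966 and an adjusted p of 0.999 in limma. The exact two-sided permutation test over animals gave p = 0.0286, the smallest that 4 animals against 4 allow. FCROS called P4HA3 under-expressed in OF, with a ratio of arithmetic means of 0.51 and an f-value of 0.00553.

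The lower level of P4HA3 in OF was read by both overlapping probes shown above, with differences of -0.98 and -1.02, and the groups did not overlap for either. The difference was -0.75 without OF 2258, the animal with the highest smooth muscle markers. With OF 0234 left out as well it was -0.83 (SE 0.28, interval -1.49 to -0.17), from 2 OF of 0.04 on average, and both OF still lay below all 4 YF. Without YF 1069 too it was -0.68 (SE 0.24, interval -1.26 to -0.11, n = 2 and 3). At an unadjusted p of 0.05 these fits called 1 of the 10 genes each, against 3.14% and 3.15% of the transcripts tested. P4HA3 and the smooth muscle markers ran in opposite directions over the 11 arrays (Pearson r = -0.63). OF 2258 had the highest smooth muscle markers and the lowest P4HA3 (-0.89). OF 0234, next in smooth muscle markers, had the highest P4HA3 of the OF (0.30). On slide 2 alone, which held 3 OF and 2 YF, the difference was -1.07 with an unadjusted p of 0.0707. With the slide as a block it was -0.95, and with array weights in limma it was -0.65.

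P4HA1, the widely expressed alpha subunit, was not distinguishable between OF and YF. Its levels were 0.22, -0.42, -0.48 and -0.09 in YF 1069, 1070, 1072 and 1127, and -0.17, 0.00, -0.34 and 0.88 in OF 0233, 0234, 0245 and 2258. The groups overlapped throughout except for OF 2258, which exceeded every other animal. The difference was 0.29 (SE 0.29, interval -0.37 to 0.95) and was -0.06 without OF 0234 and OF 2258, so its sign depended on those animals. In OF 2258, P4HA1 thus had its highest and P4HA3 its lowest level among the 3 groups, and over the 11 arrays the correlation of these subunits was -0.47.

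The lysyl hydroxylases did not separate OF from YF. PLOD2, which hydroxylates lysine in the telopeptides of collagen, had levels of -0.46, -2.13, -1.45 and -1.15 in YF 1069, 1070, 1072 and 1127, and of -1.81, -1.22, -1.98 and 0.15 in OF 0233, 0234, 0245 and 2258. OF 2258 again stood highest and YF 1069 was next. The difference of 0.08 (SE 0.51, interval -1.10 to 1.25) became -0.60 (SE 0.43) without OF 0234 and OF 2258. PLOD1, which acts on the helical part of the chain, ranged from -1.67 to -0.68 in YF and from -1.48 to -1.10 in OF, a difference of -0.07 (SE 0.22). PLOD3, which also transfers sugars to hydroxylysine, ranged from 0.27 to 0.74 in YF and from 0.49 to 0.89 in OF, a difference of 0.03 (SE 0.16). Its interval of -0.35 to 0.40 was the narrowest of the 10.

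Among the lysyl oxidases the largest difference was that of LOXL2, which oxidizes collagen including type IV of basement membranes, and it was smaller than the spread between animals. LOXL2 had levels of 3.28, 2.41, 1.72 and 1.38 in YF 1069, 1070, 1072 and 1127, and of 1.32, 2.12, 1.38 and 2.35 in OF 0233, 0234, 0245 and 2258. The difference of -0.41 (SE 0.43, interval -1.39 to 0.58) was -0.04 without YF 1069 and -0.85 (SE 0.50) without OF 0234 and OF 2258. YF 1069 was the highest of all animals, and the other YF lay within the range of the OF or just above it. LOX, the founding member of the family, differed by -0.09 (SE 0.34). Its levels were -3.75 in YF 1069 and between -4.84 and -4.66 in the other YF, against -4.87, -4.52, -5.15 and -3.87 in OF 0233, 0234, 0245 and 2258. Without OF 0234 and OF 2258 the difference in LOX was -0.50 (SE 0.34), and both remaining OF lay below all YF. With only 2 OF left, the interval of -1.29 to 0.29 included 0.

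LOXL1, which is required for elastic fibre upkeep, ranged from -0.67 to 0.43 in YF and from -0.31 to 0.82 in OF, again with OF 2258 on top, a difference of 0.06 (SE 0.32). LOXL3 ranged from 0.02 to 1.57 in YF and from -0.16 to 0.97 in OF, a difference of -0.11 (SE 0.38). LOXL4 ranged from -6.47 to -3.90 in YF and from -6.50 to -4.51 in OF and had the widest interval, -1.35 to 1.35, around a difference of 0.00. It was near the limit of measurement, as 1 of its 2 probes was not well above background in YF 1127 and in OF 0233.

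**Figure D2:**
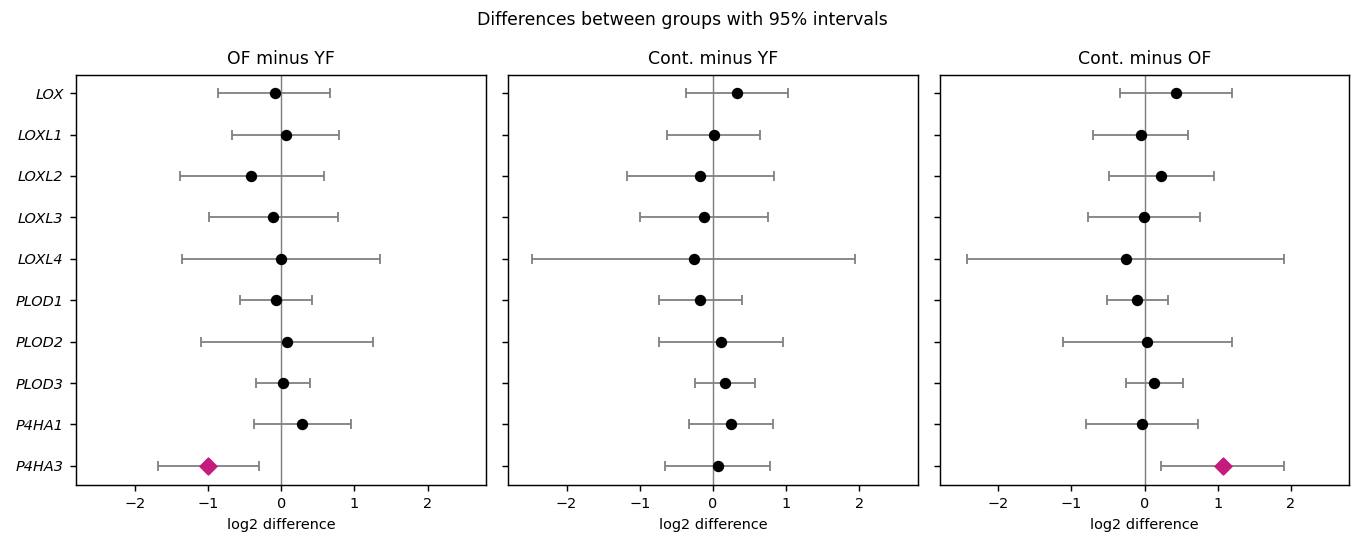
Log2 difference between groups of each of the 10 genes for OF minus YF, contemporary cows (Cont.) minus YF and contemporary cows minus OF. Points are differences of group means and bars are 95% intervals from limma. Diamonds mark the genes whose groups do not overlap, which is P4HA3 in OF minus YF (-1.00) and in contemporary cows minus OF (1.07).

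The contemporary cows were set against YF and then against OF with the same tests. These comparisons share their animals with each other and with that of OF and YF, so the values stand side by side and none is independent support for another. The contemporary cows compared were all on slide 2. Against YF, 0 of the 10 genes had an adjusted p of 0.05 or less, as for all 19993 transcripts tested (0%). At an unadjusted p of 0.05, limma called 0 of the 10 genes and 3.03% of the transcripts tested. The groups overlapped for all 10 genes and did not overlap for 3.83% of the transcripts, and FCROS called 0 of the 10 genes and 4.23% of transcripts. The median difference was 0.04 over the 10 genes and -0.02 over all transcripts tested. The largest was in LOX, 0.33 (SE 0.30, interval -0.37 to 1.03). With YF 1069 left out LOX differed by 0.58, with an unadjusted p of 0.0246 and an adjusted p of 0.998 in limma. Leaving out each animal in turn gave 0.22 to 0.58, and the other alternatives gave 0.12 to 0.52. The contemporary cows (-4.54 to -3.99) lay between the YF on slide 2, which were 1127 (-4.84) and 1069 (-3.75).

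Against OF, P4HA3 was higher in contemporary cows by 1.07 on the log2 scale (SE 0.36, interval 0.22 to 1.91). Its levels were 0.75, 1.55 and 0.52 in contemporary cows 1068, 1128 and 1129, all above the highest OF (0.30), and within or above the range of YF. The unadjusted p was 0.02 and the adjusted p 0.912 in limma, and the exact permutation test gave p = 0.0571, the smallest that 3 animals against 4 allow, so that this test cannot reach 0.05 here. The ratio of arithmetic means was 2.1. Without contemporary cow 1128 the difference was 0.76, with an unadjusted p of 0.0774. The difference from YF was 0.07 (SE 0.31, interval -0.65 to 0.78), an interval that leaves room for a change of more than 1.5-fold either way. Cow 1111, which entered no mean, had a level of 0.70, also above every OF.

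In contemporary cows against OF, 0 of the 10 genes and 0 of the 19914 transcripts tested (0%) had an adjusted p of 0.05 or less. At an unadjusted p of 0.05, limma called 1 of the 10 genes, P4HA3, and 4.57% of the transcripts tested. The groups did not overlap for 1 of the 10 genes and for 5.79% of the transcripts tested, and FCROS called 1 of the 10 and 5.40% of transcripts. The median difference was 0.02 over the 10 genes and -0.04 over all transcripts tested. Without OF 0234 and OF 2258, 4 of the 10 genes had an unadjusted p of 0.05 or less, against 7.13% of the transcripts tested in that fit. These were LOX (0.83, SE 0.25), LOXL2 (0.68, SE 0.23), PLOD2 (0.72, SE 0.21) and P4HA3 (0.90, SE 0.34), all higher in contemporary cows. Their adjusted p ranged from 0.577 to 0.666 in limma, and the exact permutation test gave p = 0.2 for each. The 2 OF that remained in that fit, 0233 and 0245, had mean deviations of -0.42 and -0.58 in stromal fibroblast markers. In contemporary cows these were 0.11 to 0.33. For epithelial markers the deviations were 0.58 and 0.89 in these OF, against -0.12 to 0.36. The part of the tissue mixture in these differences was not tested. With all 4 OF, the differences in LOX, LOXL2 and PLOD2 were 0.43 (SE 0.33), 0.23 (SE 0.31) and 0.04 (SE 0.50).

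Contemporary cows varied less than the other groups for 6 of the 10 genes. LOXL1 had levels of 0.20, 0.05 and -0.03 in contemporary cows 1068, 1128 and 1129, an SD of 0.12 against 0.50 in both OF and YF. PLOD2 had levels of -1.40, -1.18 and -0.97, an SD of 0.21 against 0.97 in OF and 0.69 in YF. LOXL4 was an exception, with levels of -7.57, -3.47 and -5.53, of which the first was not above background, so that the SD of 2.05 rests in part on a value below the range of measurement. The spread of the groups was not tested. The contemporary cows compared were fewer than the OF or the YF and were all on slide 2, whereas OF and YF were on both slides. Cow 1111, left out here, was lower in LOXL2 (0.90) than every animal compared. In order of group means, contemporary cows were highest for 4 genes, YF for 4 and OF for 2, and the ranges of neighbouring groups overlapped for every gene but P4HA3, whose OF lay below all animals of both other groups.

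Some of the genes varied together across animals. OF 2258 had the highest level among the 11 animals for LOXL1, PLOD2 and P4HA1, and YF 1069 for LOX, LOXL2, LOXL3 and PLOD1, whereas YF 1127 had the lowest for LOXL1, PLOD1 and PLOD3. Over the 11 arrays the correlation was 0.93 for LOXL2 with LOXL3, 0.87 for LOXL3 with PLOD1, 0.85 for LOXL2 with PLOD1 and 0.79 for PLOD2 with P4HA1. After the group means had been subtracted these were 0.95, 0.88, 0.90 and 0.82. Other genes were less alike: correlations with the other 9 genes ran from -0.47 to 0.36 for P4HA3, from -0.34 to 0.46 for PLOD3 and from -0.21 to 0.46 for LOXL4. After the group means had been subtracted they ran from -0.52 to 0.50, from -0.47 to 0.55 and from -0.21 to 0.55. These correlations describe 11 arrays of whole biopsies that differed in their cell type markers, and 1 or 2 animals weigh heavily in them.

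Levels of several genes moved with the cell type markers. The correlation with the mean level of the stromal fibroblast markers was 0.84 for LOXL2, 0.83 for LOX and 0.82 for LOXL1, while with the epithelial markers it was -0.92 for PLOD2, -0.88 for P4HA1 and -0.78 for LOX. The mean deviation of the epithelial markers from the 11 animals was -1.97 in OF 2258 and -1.10 in YF 1069, the animals in which PLOD2 was highest (0.15 and -0.46). PLOD3 correlated weakly with both (0.27 and 0.25), and P4HA3 likewise (0.32 and 0.34). With other lists the values were larger, 0.63 (leukocyte) and 0.50 (endothelial) for PLOD3 and -0.63 (smooth muscle) for P4HA3. The part of the tissue mixture in these levels was not tested.

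**Figure D3:**
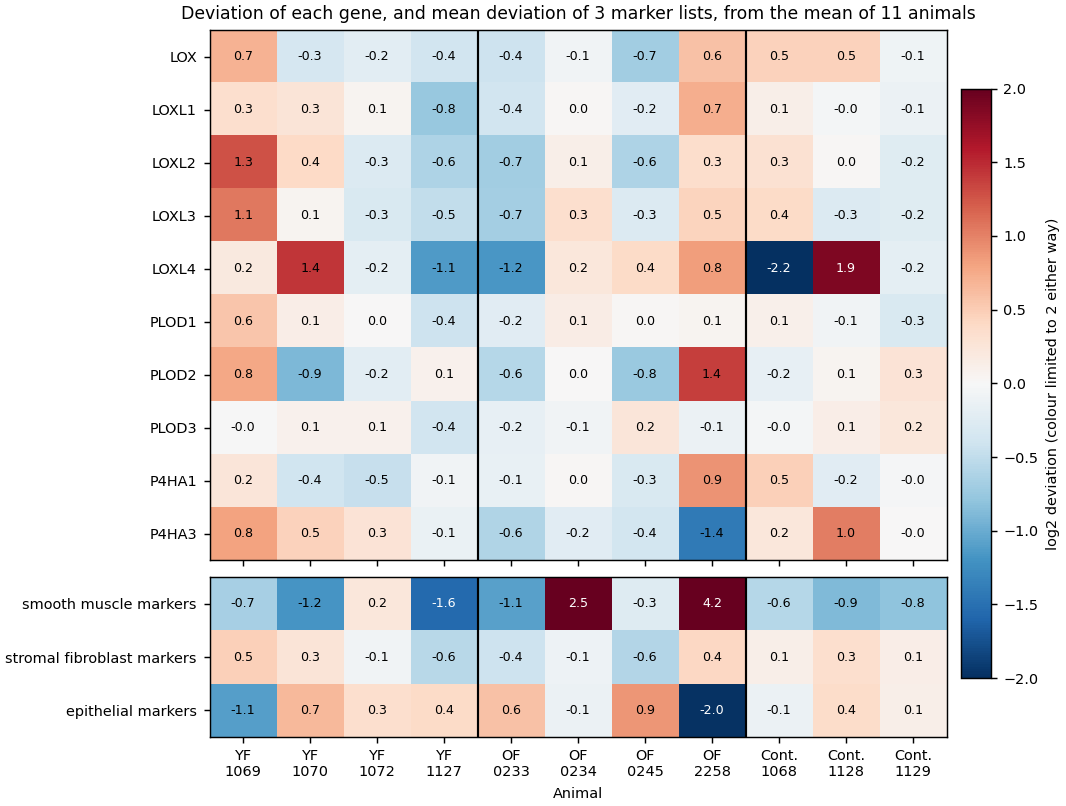
Deviation of each gene in each animal from its mean over the 11 animals (upper block, log2) and mean deviation of the genes of 3 marker lists (lower block, log2). Rows are genes or lists and columns are animals, with lines between YF, OF and contemporary cows (Cont.). OF 2258 (4.19) and OF 0234 (2.55) stand apart in smooth muscle markers and OF 2258 in epithelial markers (-1.97), and P4HA3 is lower than average in all 4 OF.

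The genes most like P4HA3 over the 11 arrays, among named genes outside the enzymes, were NDP (Pearson r = 0.96), which encodes the secreted ligand norrin, EMILIN2 (0.94), a glycoprotein of the extracellular matrix, and RAB32 (0.93), a small GTPase. Those most like LOX were CYP4V2 (0.97), a fatty acid hydroxylase, MDFIC (0.96) and GUF1 (0.95). Each is the top of a search over the transcripts tested, so high values arise from the search itself, and nothing is inferred from them.

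The partners of the enzymes were taken from lists of genes set by name. Of 17 hydroxylase partners and collagen chaperones, 16 were tested, 12 were higher and 4 lower in OF than in YF, and 0 passed an adjusted p of 0.05 or an unadjusted p of 0.05. P4HB, the protein disulfide isomerase that forms the beta subunit with P4HA1 or P4HA3, had a mean of 5.30 ± 0.14 (SD, n = 4) in YF and 5.50 ± 0.20 (SD, n = 4) in OF, a difference of 0.19 (SE 0.15). SERPINH1, the collagen chaperone HSP47, differed by 0.16 (SE 0.50). P4HA2, another alpha subunit of prolyl 4-hydroxylase that was counted in this list, differed by 0.08 (SE 0.36). The largest differences of the list were 0.31 for P3H4, which assists lysyl hydroxylation, and 0.23 for COLGALT1, which adds galactose to hydroxylysine, against -0.31 for FKBP14, a prolyl isomerase, and -0.28 for P3H2, a prolyl 3-hydroxylase. None of the 16 matched P4HA3 in size. The median of the list was 0.15, against 0.01 for all transcripts tested.

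Among the substrates, 7 of 15 collagen and elastin genes were higher and 8 lower in OF, with a median of -0.16, and 0 passed an adjusted p of 0.05. COL1A1, COL1A2 and COL3A1, the chains of types I and III collagen, differed by -0.16 (SE 0.32), -0.46 (SE 0.29) and -0.34 (SE 0.29). ELN, elastin, differed by 0.47 (SE 0.54) and COL4A2, a basement membrane chain, by 0.46 (SE 0.34). The largest difference was in COL2A1, cartilage collagen, which was lower in OF by 1.33 on the log2 scale (a difference of -1.33, SE 0.43, unadjusted p = 0.0146 and adjusted p = 0.999 in limma), followed by COL11A1 at -0.83 (SE 0.56). In contemporary cows against OF, COL1A2 was higher by 0.65 (SE 0.25, unadjusted p = 0.0353 and adjusted p = 0.912 in limma). Smooth muscle and stromal cells both express several of these genes, and the marker levels given above apply to them as well.

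Of 8 procollagen processing genes only 3 were tested, since the other 5 were not well above background throughout either group. PCOLCE2, which enhances removal of the C-propeptide, differed by -1.15 (SE 0.45, unadjusted p = 0.0314 and adjusted p = 0.999 in limma) in OF against YF and by 1.41 (SE 0.38, unadjusted p = 0.00666 and adjusted p = 0.904 in limma) in contemporary cows against OF. BMP1, the protease that removes the C-propeptide and activates LOX, differed by -0.31 (SE 0.20), and PCOLCE by -0.05 (SE 0.29). Of 18 elastic fibre genes and crosslinking helpers, 9 were higher and 9 lower in OF, 0 with an unadjusted p of 0.05 or less. POSTN, periostin, which brings BMP1 to LOX, had the largest difference at 1.16 (SE 0.57, interval -0.15 to 2.47), followed by MFAP4 at 0.96 (SE 0.67). MFAP5 and FBN2, both of microfibrils, were at -0.81 (SE 0.50) and -0.59 (SE 0.54), and the median of the list was 0.01.

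Hypoxia and TGF-beta are known inducers of LOX, PLOD2 and P4HA1, so their genes were listed too. Of 17 hypoxia response genes tested, 8 were higher and 9 lower in OF, with a median of -0.08, and of 14 TGF-beta ligands, receptors and targets, 10 were higher and 4 lower, with a median of 0.07. None of them had an unadjusted p of 0.05 or less. In the first list LDHA and ENO1, both of glycolysis, differed by 0.71 (SE 0.32) and 0.36 (SE 0.19), and HIF1A and its hydroxylase EGLN3 by -0.57 (SE 0.30) and -0.54 (SE 0.54). In the second, the ligand TGFB1 differed by 0.46 (SE 0.24), and the inhibitor SMAD7 and the receptor TGFBR2 by -0.49 (SE 0.29) and -0.29 (SE 0.29). By contrast, all 12 smooth muscle markers were higher in OF, with a median difference of 2.02, although only TAGLN had an unadjusted p below 0.05 (0.0438), and the summed level was high in OF 0234 and OF 2258 alone. The 9 stromal fibroblast markers had a median of -0.27, with 8 of 9 lower in OF. The medians were -0.19 for 10 epithelial, 0.20 for 8 endothelial, 0.19 for 9 leukocyte and 0.01 for 4 erythrocyte markers.

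**Figure D4:**
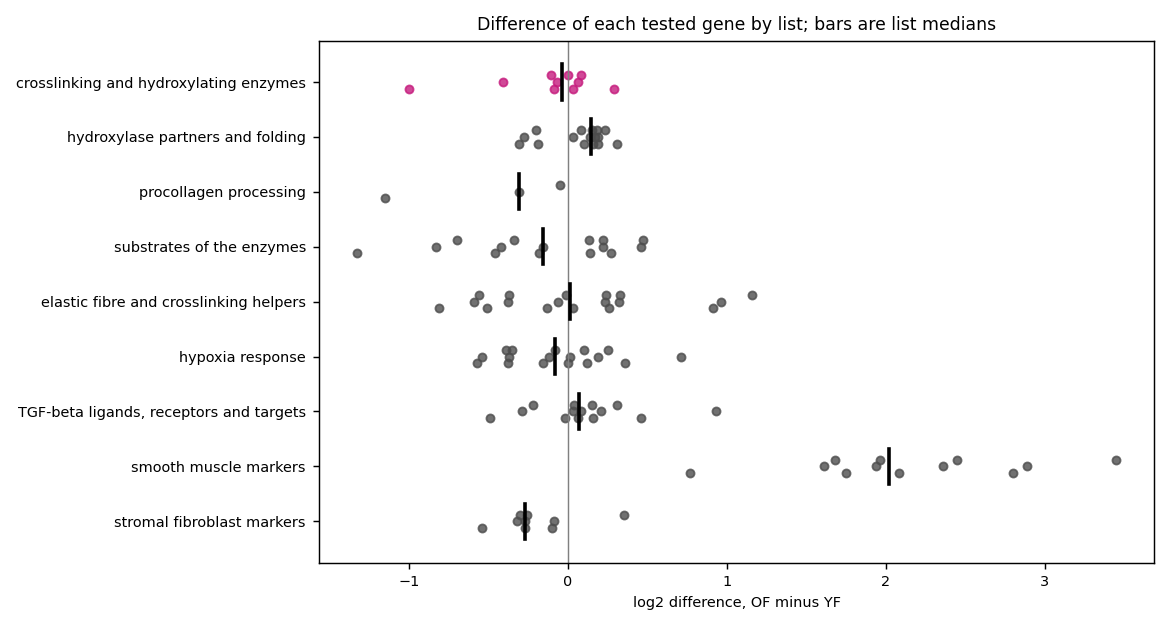
Log2 difference of OF minus YF for each tested gene of the enzymes (pink) and of 8 other lists (grey), 1 list per row, with a black bar at the median of each list. P4HA3 is the leftmost pink point (-1.00), and the 12 smooth muscle markers lie between 0.77 and 3.45.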

How the data were processed

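Total RNA of each biopsy was labelled with Cy-3 and hybridized to an array of its own. The authors deposited the spot intensities given by Agilent's Feature Extraction 10.7.3.1, whose processed intensity is corrected for background and not normalized between arrays. Other columns were used for flags and alternatives. Signal over background, and not a depth, limits what can be measured.

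Levels are log2 intensities minus the 75th percentile of the array. Spots of a probe, then probes of a transcript, were averaged after 1319 control spots and 66 outlier-flagged probes were left out. Symbols came from the study's transcript table for 835 transcripts (names only, none of its values), RefSeq accessions for 12498 and the array annotation for 8191. For 4799 no symbol was used. Of several transcripts of a gene, the one with the highest mean level was taken.

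Groups followed the sample titles. Comparisons used limma 3.58.1 in R 4.3.3 (two-sided, Benjamini-Hochberg at 0.05) on transcripts of which a probe exceeded background clearly on all arrays of either group. Exact permutation tests over animals were run with scipy. FCROS was coded from its description (trim 0.25, f-values beyond 0.025 and 0.975, ratio 1.5) and run on all transcripts. Limma was tested on simulated arrays. No arrays were identical (pairwise r from 0.951 to 0.992). Every gene of the enzyme set was named, and marker lists were given by their medians. Of the other pathway lists, the 2 highest and 2 lowest differences of OF against YF, the direct partners and P4HA2 were named. A gene that this rule names is not reported here. The genes and lists were chosen with earlier results of these data known. The alternatives were other normalizations, probe summaries and filters, the slide, all groups in 1 fit, cow 1111, array weights and each animal left out, and, added after seeing the data, the arrays that stood apart left out together.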

Additional observations from a re-analysis of the deposited data

Results flagged for a closer look

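One value stood apart within its group. LOX in YF 1069, at -3.75, was separated from the next YF by a share of 0.838 of the whole range of the 4 YF, above Dixon's 95% critical value for 4 samples. Chance flags about 1 in 20 groups, and 20 groups of 4 were examined. YF 1069 also had the lowest epithelial and the highest stromal fibroblast markers among YF, with mean deviations of -1.10 and 0.47 on the log2 scale. Without YF 1069, LOX differed by 0.16 between OF and YF, in place of -0.09. The part of the tissue mixture in this value was not tested.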

How the results depend on the processing

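No enzyme gene passed an adjusted p of 0.05 in limma under any alternative run. FCROS, run on all transcripts, called 1300 transcripts (OF against YF), 1113 (contemporary cows against YF) and 1422 (contemporary cows against OF), among them 1, 0 and 1 of the 10 genes, in place of 0 in limma. The P4HA3 difference kept its sign in every alternative for OF against YF (-1.16 to -0.65, adjusted p from 0.355 to 1) and for contemporary cows against OF (0.76 to 1.27, adjusted p from 0.172 to 1). Over all transcripts, limma's count of calls stayed at 0 for OF against YF. For contemporary cows against YF it was 1 with quantile normalization, 2 with all groups in 1 fit, 1 with array weights, 4 with cow 1111 included and 0 to 1 with each animal left out. The 1 call came without contemporary cow 1068 and without contemporary cow 1129. For contemporary cows against OF it was 26 with array weights, 2 with cow 1111 included and 0 to 1 with each animal left out, the 1 without contemporary cow 1129. Of 607 values of single genes under alternatives, 526 kept their sign and 81 changed it, all without a call. The cause was not tested.

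For OF against YF, sign changes were found with array weights (LOX 0.05, LOXL1 -0.04, LOXL3 0.28, PLOD1 0.05 and PLOD3 -0.06), median centring (LOXL4 0.01), the brightest probe or probe 1 on its own (LOXL4 0.16 and PLOD3 -0.02), the slide as a block (LOXL4 0.20 and PLOD2 -0.17), slide 2 alone (LOXL4 0.44 and PLOD2 -0.16), OF 0234 and OF 2258 left out (LOXL1 -0.28, PLOD2 -0.60 and P4HA1 -0.06) and YF 1069 left out with them (LOXL1 -0.16 and PLOD2 -0.32). With each animal left out the ranges that crossed 0 were -0.34 to 0.16 for LOX, -0.18 to 0.20 for LOXL1, -0.30 to 0.21 for LOXL3, -0.40 to 0.45 for LOXL4, -0.24 to 0.09 for PLOD1, -0.38 to 0.36 for PLOD2 and -0.08 to 0.08 for PLOD3.

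For contemporary cows against YF they were found with array weights (LOXL1 -0.07 and LOXL4 0.62), cow 1111 included (LOXL1 -0.02), normexp and quantile normalization (LOXL4 0.06) and the slide as a block or slide 2 alone (LOXL4 0.28, PLOD2 -0.38 and P4HA1 -0.01). The ranges were -0.23 to 0.13 for LOXL1, -0.45 to 0.19 for LOXL2, -0.33 to 0.21 for LOXL3, -1.29 to 0.76 for LOXL4, -0.16 to 0.39 for PLOD2 and -0.24 to 0.28 for P4HA3.

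For contemporary cows against OF they were found with OF 0234 and OF 2258 left out (LOXL1 0.29, LOXL3 0.43, LOXL4 0.20, PLOD1 0.01 and P4HA1 0.31), cow 1111 included (LOXL2 -0.05 and PLOD2 -0.06), median centring (LOXL3 0.02), normexp and quantile normalization (LOXL4 0.07), array weights (LOXL4 0.87), the slide as a block or slide 2 alone (PLOD2 -0.22) and the brightest probe or probe 1 on its own (P4HA1 0.01). The ranges were -0.19 to 0.18 for LOXL1, -0.22 to 0.16 for LOXL3, -1.29 to 0.76 for LOXL4, -0.19 to 0.01 for PLOD1, -0.22 to 0.49 for PLOD2 and -0.23 to 0.23 for P4HA1.

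No paired analysis was possible because the replicate numbers are those of single animals and no number is shared between groups. The number of arrays limits the precision of every value, and LOXL4 lay near background.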
